A study of Mus musculus with 16 samples.

Results

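The 6 genes described here carry out or control de novo fatty acid synthesis, the making of fatty acids from acetyl-CoA in the cytosol: Acly, Acss2, Acaca, Acacb, Fasn and Srebf1. They were taken by name, as the rows of the deposited gene table carrying these symbols, and the set was drawn up with earlier results of these data known. All 6 were among the 53801 genes of that table and among the 21768 genes that passed the filter on low counts. RNA of oligodendrocytes, isolated by magnetic sorting from the brains of perfused mice, was sequenced from 16 male mice in 4 groups of 4. App_HFD mice were homozygous App NL-G-F/NL-G-F knock-ins (a humanised amyloid-β sequence with the Swedish, Beyreuther/Iberian and Arctic mutations in the mouse's own App gene, in every cell) on a high-fat diet with 60.0% of energy as fat. App_NCD mice were the same knock-ins on a normal control diet with 12.5% of energy as fat. WT_HFD and WT_NCD mice were C57BL/6J Jcl wild types on those diets. The knock-in line was bred by the submitters and the wild types were bought, so genotype and source of the mice cannot be told apart. Feeding began at 2 months of age and lasted 6 months, and the mice were 8 months old when sampled. Libraries are named by group and by the labels' mouse number, and each is taken as 1 mouse.

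In this pathway ATP citrate lyase (Acly) splits citrate exported from mitochondria into cytosolic acetyl-CoA, and acetyl-CoA synthetase (Acss2) makes it from acetate. Acetyl-CoA carboxylase then turns acetyl-CoA into malonyl-CoA, either as the cytosolic form (Acaca), which feeds synthesis, or as the form at the mitochondrial outer membrane (Acacb), whose malonyl-CoA restrains fatty acid import into mitochondria. Fatty acid synthase (Fasn) extends malonyl-CoA to palmitate, and SREBP-1, encoded by Srebf1, is the transcription factor best known for driving these genes in liver. Oligodendrocytes build the lipid-rich myelin sheath, and fatty acid synthesis within the lineage is needed for normal myelination in mice.

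Library totals ran from 64538297 to 217925484 counts. App_NCD 553 stood apart: 18928 genes had a count above 0, against 27151 to 30617 in the other 15 libraries, and 39.4% of its counts came from mitochondrially encoded genes, against 1.22% to 4.62%. Gene counts varied between libraries of 1 group by 36.5% (common biological coefficient of variation) in the fit of 16 and by 26.3% in the fit without 553, and results are given from both. The sorted cells carried the oligodendrocyte marker Mbp at 2187 to 4990 CPM (counts per 1e6 of the library total, after scaling by edgeR's trimmed mean of M values, TMM) in the 16 libraries. RNA of other cells was present as well. A sum over 16 microglial markers was 8896 to 18180 CPM in App_NCD and 4389 to 7401 CPM in WT_NCD. On the high-fat diet it was 11870 to 19640 CPM in App_HFD and 3313 to 6304 CPM in WT_HFD. Of the 16 genes, 15 were called higher in App mice over both diets, beside 10.6% of all tested genes. A sum over 10 ependymal and choroid plexus markers was 9346 to 21390 CPM in App_NCD and 24840 to 30680 CPM in WT_NCD. On the high-fat diet it was 7213 to 14960 CPM in App_HFD and 18020 to 36780 CPM in WT_HFD. Of the 10 genes, 5 were called lower in App mice over both diets, beside 6.34% of all tested genes. The sum over 30 oligodendrocyte and myelin markers was 43590 to 72170 CPM in App_NCD, 55470 to 74860 CPM in WT_NCD, 47870 to 61070 CPM in App_HFD and 61970 to 73000 CPM in WT_HFD. In bulk RNA, fewer cells of a type and less RNA per cell cannot be told apart.

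The stretches just before the annotated starts of 4 of the genes are shown because 3 of them, Acss2, Fasn and Srebf1, were lower in App_NCD than in WT_NCD libraries when App_NCD 553 was left out, while Acly was not. They are RefSeq sequences of mouse build GRCm38.p6, printed 5′ to 3′ on the gene's strand, and capitals mark matches to a CCAAT box (CCAAT) or a GC box (GGGCGG) on either strand. The coordinates are chr11:100528001-100528250 (minus strand) for Acly, chr2:155517793-155517947 (plus strand) for Acss2, chr11:120824548-120824797 (minus strand) for Fasn and chr11:60210472-60210721 (minus strand) for the third of 3 annotated starts of Srebf1, the start whose window held both kinds of box.
Acly: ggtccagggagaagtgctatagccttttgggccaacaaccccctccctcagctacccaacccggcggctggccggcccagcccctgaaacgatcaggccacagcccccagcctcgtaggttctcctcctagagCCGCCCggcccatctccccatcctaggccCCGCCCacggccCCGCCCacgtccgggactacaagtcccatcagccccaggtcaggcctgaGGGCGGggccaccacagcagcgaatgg
Acss2: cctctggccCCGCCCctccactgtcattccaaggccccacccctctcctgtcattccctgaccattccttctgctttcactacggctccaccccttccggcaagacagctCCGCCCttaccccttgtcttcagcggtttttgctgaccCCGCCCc
Fasn: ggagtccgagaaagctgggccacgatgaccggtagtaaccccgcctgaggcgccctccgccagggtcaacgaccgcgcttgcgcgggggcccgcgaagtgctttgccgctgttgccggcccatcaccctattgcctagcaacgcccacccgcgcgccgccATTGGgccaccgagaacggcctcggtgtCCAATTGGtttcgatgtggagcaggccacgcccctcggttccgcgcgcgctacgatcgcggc
Srebf1: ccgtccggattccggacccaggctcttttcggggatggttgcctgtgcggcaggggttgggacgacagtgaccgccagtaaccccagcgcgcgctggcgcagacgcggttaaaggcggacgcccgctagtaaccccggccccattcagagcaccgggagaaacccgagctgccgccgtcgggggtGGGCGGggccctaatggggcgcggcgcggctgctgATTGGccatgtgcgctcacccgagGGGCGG
In the 250 bases before the start, Acly held 4 GC boxes, Fasn held 3 CCAAT boxes of which 2 overlap, Acss2 held 4 GC boxes and 1 CCAAT box, and the third Srebf1 start held 2 GC boxes and 1 CCAAT box. The Acss2 stretch is printed only as far as the annotated gene start, so 3 of its 4 GC boxes are seen and its CCAAT box is not. Of all 32851 such mouse windows in the table, 33.8% held a CCAAT box and 32.7% a GC box on either strand. The spellings searched for a sterol regulatory element (TCACNCCAC, in 1.05% of windows) and an E-box (CACGTG, in 6.02%) were absent from all 8 windows of the 6 genes. The windows of Acaca, with 0 boxes of either kind, and Acacb, with 1 CCAAT box, are not shown. Both lie inside the annotated genes, as does the printed Srebf1 window. Of the other Srebf1 starts, the first held 1 CCAAT box and the second 2 GC boxes. The Srebf1 start shown was picked for its boxes, and Acacb was also lower in App_NCD. The stretches are therefore no comparison of lower genes with Acly.

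Per kb of merged exons, 3 of the genes were abundant and 3 were not. The plot of levels per length shows both tiers. Merged exons take in every annotated exon of a gene, 17074 bases for Acaca, 10163 for Acss2 and 5279 for Acly. They can be longer than the transcripts present. The tiers, the order between genes and the shares below therefore rest on that length. In WT_NCD libraries Srebf1 was highest at 51.0 ± 11.7 CPM per kb of merged exons, followed by Fasn at 43.4 ± 6.72 and Acly at 32.3 ± 0.947 (SD, n = 4 each). Acaca stood at 8.80 ± 0.744, Acss2 at 6.91 ± 0.379 and Acacb at 5.65 ± 1.38 CPM per kb. Srebf1 and Fasn overlapped in that order, as did Acss2 and Acacb, while the other neighbours did not. In WT_HFD libraries the order was the same, with Srebf1 at 43.9 ± 3.80 and Acacb at 5.07 ± 1.81 CPM per kb (SD, n = 4). In App_HFD libraries the order of the means at the top differed, with Acly at 37.6 ± 1.92, Srebf1 at 37.1 ± 3.94 and Fasn at 35.0 ± 2.94 CPM per kb, and these 3 overlapped. Below them Acaca was at 12.4 ± 1.53, Acss2 at 4.65 ± 0.216 and Acacb at 2.45 ± 0.538 CPM per kb, with no overlap between neighbours. App_NCD without 553 had the same order as App_HFD, with Acly at 37.0 ± 0.392 and Acacb at 3.13 ± 0.123 CPM per kb (SD, n = 3). As a share of the summed level per kb of the 6 genes in a library, Acaca made up 10.1% ± 1.86 in App_NCD and 5.99% ± 0.495 in WT_NCD, and 9.59% ± 1.08 in App_HFD and 6.66% ± 0.441 in WT_HFD (SD, n = 4 each).

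**Figure D1:**
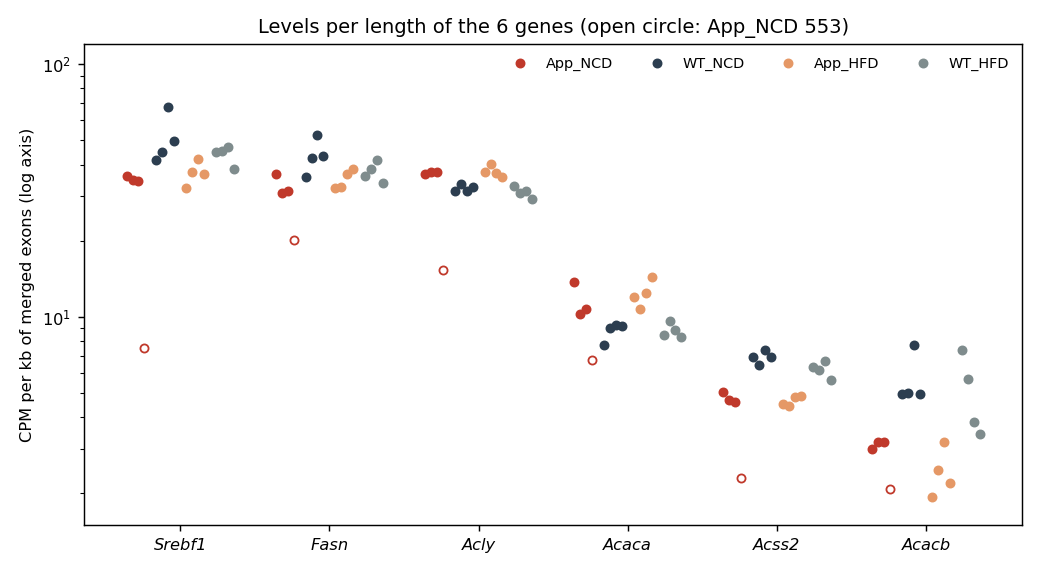
Level of each gene in CPM per kb of merged exons (log axis) in every library, with genes along the x axis and the 4 groups side by side from App_NCD to WT_HFD. Srebf1, Fasn and Acly form the upper tier, and Acacb has the lowest mean in every group, at 2.45 CPM per kb in App_HFD and 5.65 CPM per kb in WT_NCD.

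The first comparison asks how the knock-in differs from wild type on the control diet. With all 16 libraries, Acss2 and Acacb were lower in App_NCD and no member was called higher. These 2 of 6 members compare with 8.39% of all tested genes called in this contrast, 6.5% as higher and 1.88% as lower (edgeR's quasi-likelihood test, Benjamini-Hochberg adjusted p below 0.05 over all tested genes). The median log2 fold change of the 6 was -0.64, beside -0.016 over all tested genes and -0.415 over the 30 oligodendrocyte markers. Without 553 these medians were -0.498, -0.051 and -0.312. Leaving out App_NCD 553 brought the count to 4 of 6, all lower (Acss2, Acacb, Fasn and Srebf1), and leaving out WT_NCD 11 from the 16 brought it to 0; in the fit without 553, 17.5% of genes were called, 10.2% higher and 7.22% lower. The 16-library background held 1416 genes higher and 410 lower. It held 2295 higher and 31 lower when libraries were scaled to 30 oligodendrocyte markers, and 525 higher and 316 lower with library totals alone.

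Among the acetyl-CoA suppliers, Acss2 (ENSMUSG00000027605, mm10 chromosome 2, 155517948 to 155585724, plus strand) had 51.1, 47.5, 46.5 and 23.4 CPM in App_NCD libraries 537, 538, 545 and 553, against 70.7, 65.3, 74.7 and 70.3 CPM in WT_NCD. Every App_NCD library lay below every WT_NCD library, with or without 553. The log2 fold change was -0.74 ± 0.183 (SE, edgeR adjusted p = 0.0214), and -0.57 ± 0.0815 without 553 (adjusted p = 0.000231). Without WT_NCD 11 the adjusted p was 0.0542. Exons of Acss2 share 395 bases with Gss, 335 with Acss2os and 197 with Ggt7 on the opposite strand, and although the libraries were directional, no source used here says whether strand entered the counting.

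Acly (ENSMUSG00000020917, chromosome 11, 100476353 to 100528000, minus strand) had 193, 197, 197 and 80.7 CPM in App_NCD, against 166, 177, 166 and 172 CPM in WT_NCD. Without 553, which lay far below, App_NCD lay above all of WT_NCD. Its log2 fold change was -0.03 ± 0.207 (adjusted p = 0.939), and 0.17 ± 0.0753 without 553 (adjusted p = 0.134), so neither passed.

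The carboxylases stood on opposite sides. Acacb (ENSMUSG00000042010, chromosome 5, 114146535 to 114250761, plus strand) had 28.7, 30.8, 30.7 and 20.0 CPM in App_NCD, against 47.5, 48.1, 74.3 and 47.6 CPM in WT_NCD, with no overlap. App_NCD libraries averaged 27.6 ± 5.15 CPM, against 54.4 ± 13.3 CPM for the WT_NCD libraries (SD, n = 4 each), 0.507-fold by the fit. The log2 fold change was -0.98 ± 0.25 (adjusted p = 0.0247), and -0.88 ± 0.248 without 553 (adjusted p = 0.0240). Without WT_NCD 11, its highest library, the log2 fold change was -0.82 (adjusted p = 0.087). Acaca (ENSMUSG00000020532, chromosome 11, 84129672 to 84401651, plus strand) had 234, 174, 182 and 115 CPM in App_NCD, against 132, 154, 159 and 157 CPM in WT_NCD. As with Acly, 3 App_NCD libraries lay above WT_NCD and 553 below it. Neither its log2 fold change of 0.23 ± 0.173 (adjusted p = 0.406) nor that of 0.36 ± 0.125 without 553 (adjusted p = 0.0587) passed.

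Fasn (ENSMUSG00000025153, chromosome 11, 120805846 to 120824547, minus strand) had 401, 338, 343 and 221 CPM in App_NCD, against 391.7, 464, 571 and 472 CPM in WT_NCD. The groups overlapped, through App_NCD 537 and WT_NCD 4. The log2 fold change was -0.54 ± 0.17 (adjusted p = 0.0597), and -0.43 ± 0.131 without 553 (adjusted p = 0.036). Fasn was also called lower without App_NCD 537 (-0.69, adjusted p = 0.0278) or WT_NCD 4 (-0.66, adjusted p = 0.0358). Srebf1 (ENSMUSG00000020538, chromosome 11, 60199089 to 60222581, minus strand) had 202, 195, 194 and 42.5 CPM in App_NCD, against 235, 253, 382 and 279 CPM in WT_NCD. The groups did not overlap, and 553 had less than any other library. The log2 fold change was -0.86 ± 0.336 (adjusted p = 0.121), and -0.57 ± 0.149 without 553 (adjusted p = 0.016). Srebf1 has 3 annotated starts in the promoter table, and a gene-level count does not separate their products. It shares 109 exon bases with Rai1 on the opposite strand.

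In all, 3 of 6 members were lower in every App_NCD than in every WT_NCD library (Acss2, Acacb and Srebf1), and 0 were higher, a separation shown downward by 8.27% and upward by 7.66% of all tested genes. Without 553 Acly and Acaca were also separated, upward, as were 13.3% of genes, with 13.6% downward.

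**Figure D2:**
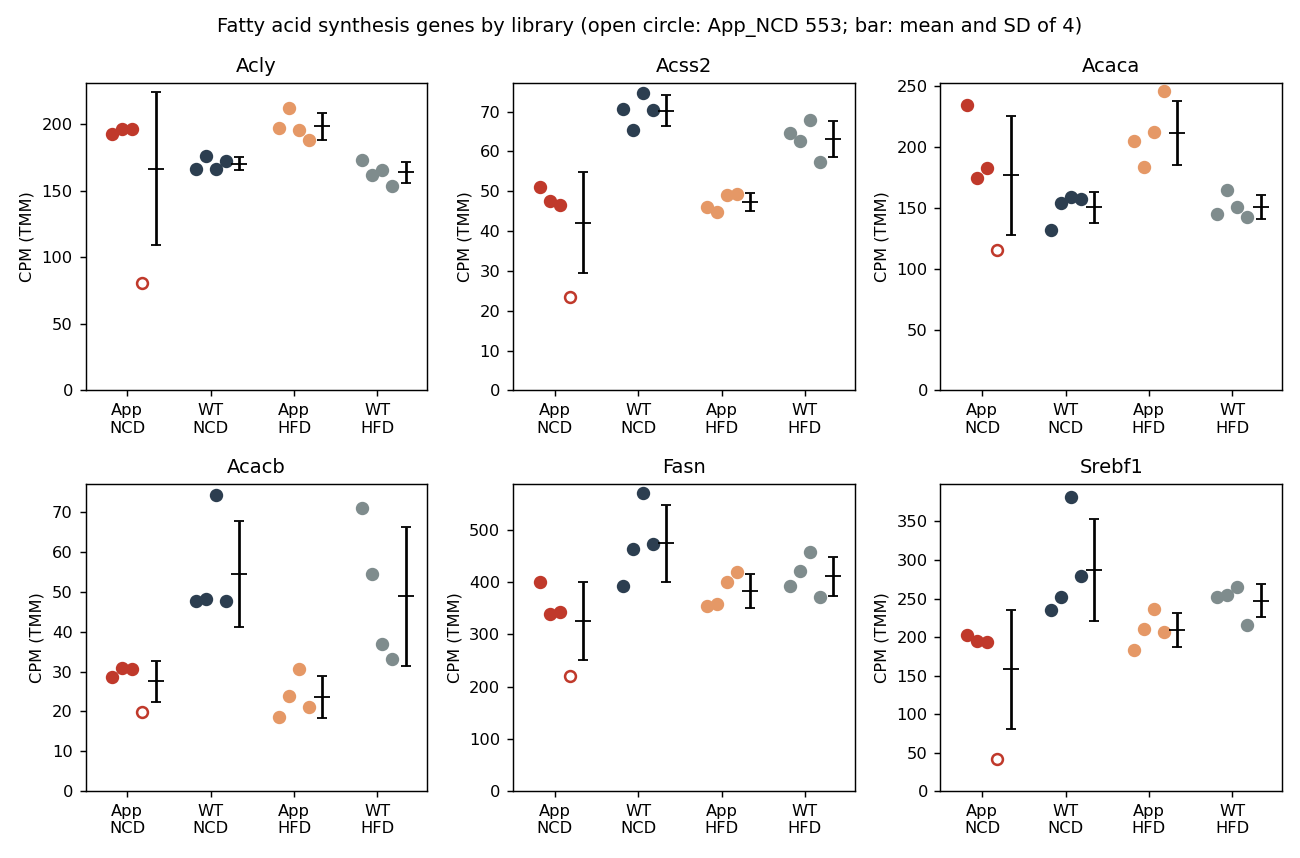
Level of each gene in CPM (TMM-scaled, axis from 0) by library, 1 panel per gene, with the groups App_NCD, WT_NCD, App_HFD and WT_HFD from left to right. Points are libraries, the open circle is App_NCD 553, and bars are the mean and SD of 4; Acss2 lies at 23.4 to 51.1 CPM in App_NCD and 65.3 to 74.7 CPM in WT_NCD.

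The second comparison asks the same on the high-fat diet, where neither group holds App_NCD 553, although that library still enters the estimate of the spread. With all 16 libraries Acacb alone of the 6 was called, lower in App_HFD, where 7.14% of all tested genes were called, 5.09% higher and 2.05% lower. When 553 was left out of the fit 4 of 6 were called, Acss2 and Acacb lower and Acly and Acaca higher, with 19.3% of genes called, 10.8% higher and 8.54% lower. The background split was 1108 higher and 446 lower with 16 libraries, 1175 and 57 with oligodendrocyte scaling, and 640 and 537 with library totals alone.

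Acacb had 18.7, 23.8, 30.7 and 21.2 CPM in App_HFD, against 71.0, 54.4, 37.0 and 33.1 CPM in WT_HFD. The groups did not overlap, though the highest App_HFD library (560) came close to the lowest WT_HFD library (16). The log2 fold change was -1.05 ± 0.25 (edgeR adjusted p = 0.0173), and -1.07 ± 0.227 without 553 (adjusted p = 0.00375). Leaving out App_HFD 547, 559 or 561 or WT_HFD 2 or 3 from the 16 gave adjusted p values of 0.0511 to 0.0713, with log2 fold changes of -1.09 to -0.84.

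Acss2 had 46.0, 44.9, 49.1 and 49.2 CPM in App_HFD, against 64.6, 62.7, 67.9 and 57.3 CPM in WT_HFD. All App_HFD libraries lay below all WT_HFD libraries. The log2 fold change of -0.42 ± 0.182 was not called with 16 libraries (adjusted p = 0.229), and that of -0.44 ± 0.0748 was called without 553 (adjusted p = 0.000826). Acaca had 205, 183, 212 and 246 CPM in App_HFD, against 144, 164, 151 and 142 CPM in WT_HFD, again with no overlap. Its log2 fold change was 0.49 ± 0.173 (adjusted p = 0.112), and 0.47 ± 0.116 without 553 (adjusted p = 0.00992). Acly had 198, 213, 196 and 189 CPM in App_HFD, against 173, 162, 166 and 154 CPM in WT_HFD. It was higher in every App_HFD library, with a log2 fold change of 0.28 ± 0.207 (adjusted p = 0.591), and 0.25 ± 0.07 without 553 (adjusted p = 0.018). For these 3 genes the fold change hardly moved when 553 was dropped, while the standard error fell to 0.0748, 0.116 and 0.07, against 0.182, 0.173 and 0.207 with it.

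Fasn had 354, 358, 400.3 and 419 CPM in App_HFD, against 393, 422, 458 and 371 CPM in WT_HFD. Srebf1 had 183, 210.1, 237 and 207 CPM in App_HFD, against 252, 255, 265 and 216 CPM in WT_HFD. Both genes overlapped between the groups. The log2 fold changes were -0.10 ± 0.169 for Fasn (adjusted p = 0.886) and -0.24 ± 0.333 for Srebf1 (adjusted p = 0.851). Without 553 the 95% intervals ran from -0.38 to 0.13 for Fasn and from -0.55 to 0.03 for Srebf1. Thus 4 of 6 members were separated between App_HFD and WT_HFD, Acly and Acaca upward, as were 15% of genes, and Acss2 and Acacb downward, as were 10% of genes.

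Averaged over both diets, Acss2 (log2 fold change -0.58 ± 0.129, adjusted p = 0.00551) and Acacb (-1.01 ± 0.177, adjusted p = 0.000867) were lower in App than in wild-type libraries in edgeR, in a contrast that called 17% of tested genes. Acaca had 0.36 ± 0.122 (adjusted p = 0.0545) and Fasn -0.32 ± 0.12 (adjusted p = 0.0783), which passed without App_NCD 537 (-0.41, adjusted p = 0.0289) or WT_NCD 4 (-0.39, adjusted p = 0.0388). Without 553 all 6 were called, where 33.6% of genes were. Acly (0.21 ± 0.0514, adjusted p = 0.00508) and Acaca (0.42 ± 0.0852, adjusted p = 0.00159) were higher. Lower were Acss2 (-0.50 ± 0.0553, adjusted p = 6.54e-06), Acacb (-0.98 ± 0.168, adjusted p = 0.000406), Fasn (-0.28 ± 0.0885, adjusted p = 0.0256) and Srebf1 (-0.42 ± 0.101, adjusted p = 0.00473). Leaving out WT_NCD 4 and WT_HFD 16, the wild-type libraries with the most microglial marker RNA, left the called members at Acss2 and Acacb.

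The scaling decided which side of 0 several of these genes lay on. Scaling to the 30 oligodendrocyte markers moved the median log2 fold change of all genes to 0.248 on the control diet and 0.277 on the high-fat diet, and to 0.346 on the control diet without 553. Under it, without 553, Acaca had 0.79 (adjusted p = 0.00272) and Acly 0.57 (adjusted p = 0.0101) on the control diet. Acacb had -0.46 there (adjusted p = 0.158) and -0.75 on the high-fat diet (adjusted p = 0.0211), while Acss2 had -0.16 (adjusted p = 0.439) and -0.14 (adjusted p = 0.464). Fasn moved to 0.007 on the control diet and 0.17 on the high-fat diet, and Srebf1 to -0.14 and 0.04. Over both diets and with all 16 libraries Acss2 had -0.28 under this scaling (adjusted p = 0.317), and Acacb was called lower over both diets under each of the 27 alternatives run, with adjusted p from 1.11e-06 to 0.0175. This scaling moves all genes of a library together by construction, so the changed signs and larger values go with the shift of the median and say nothing particular to these 6 genes. The standard error differed as well, at 0.14 for Acss2 on the control diet without 553, against 0.0815 with TMM.

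**Figure D3:**
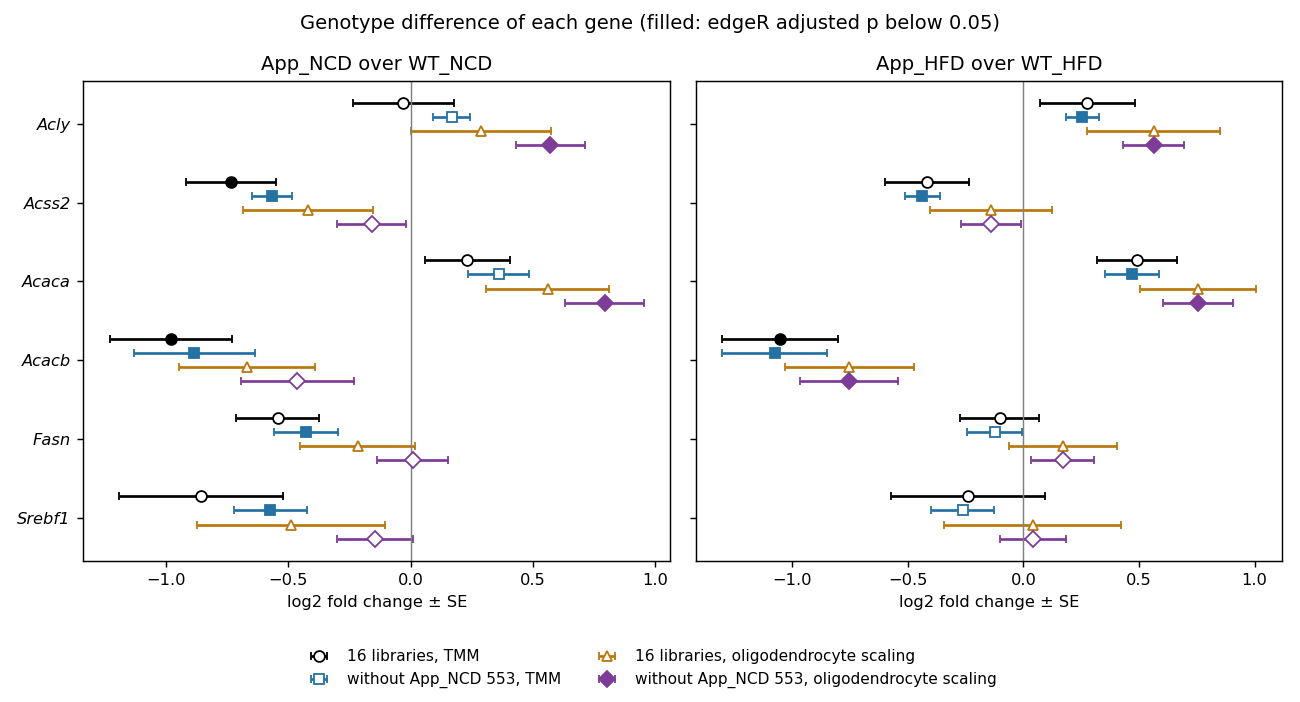
Log2 fold change with SE of each gene for App_NCD over WT_NCD (left) and App_HFD over WT_HFD (right), under 4 combinations of libraries and scaling. Filled symbols have an edgeR adjusted p below 0.05; Acacb lies left of 0 in all 8 estimates, from -1.07 to -0.46, and Acaca right of 0.

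Ratios of counts within a library do not depend on scaling. They show unequal differences between 2 genes, not which gene differs. The Acacb to Acaca ratio was 0.123, 0.177, 0.169 and 0.174 in App_NCD, against 0.362, 0.313, 0.467 and 0.303 in WT_NCD. It was 0.0913, 0.130, 0.145 and 0.0860 in App_HFD, against 0.492, 0.331, 0.245 and 0.233 in WT_HFD. No App library reached the level of any wild-type library on either diet, and 553 lay among the other App_NCD libraries. The log2 difference was -1.16 on the control diet and -1.49 on the high-fat diet, each with an exact two-sided permutation p of 0.0286, the smallest that 4 against 4 can give, and 0.0571 after adjustment over the 12 ratio tests.

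The Acss2 to Acly ratio behaved alike, at log2 -1.96 ± 0.135 in App_NCD and -1.28 ± 0.118 in WT_NCD, and -2.07 ± 0.135 in App_HFD and -1.38 ± 0.0638 in WT_HFD (SD, n = 4 each). The Acaca to Fasn ratio was the other way, at log2 -0.90 ± 0.0814 in App_NCD and -1.65 ± 0.13 in WT_NCD, and -0.86 ± 0.0968 in App_HFD and -1.45 ± 0.108 in WT_HFD (SD, n = 4 each). Neither ratio overlapped between the genotypes on either diet, with 553 included. Each of these 4 tests had the same smallest exact permutation p of 0.0286 (adjusted 0.0571). Every ratio, Acacb to Acaca included, sets a member higher in App mice over both diets without 553 against a lower one. Other pairs were not tested, and the share of all gene pairs separated in this way was not measured. The separation is thus not shown to be particular to these genes. Averaged over both diets, the differences were -1.33 for Acacb to Acaca, -0.69 for Acss2 to Acly and 0.67 for Acaca to Fasn, 0.398-fold, 0.622-fold and 1.59-fold. The microglial and choroid plexus marker sums differed between the genotypes as well, and their part in these ratios was not tested.

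**Figure D4:**
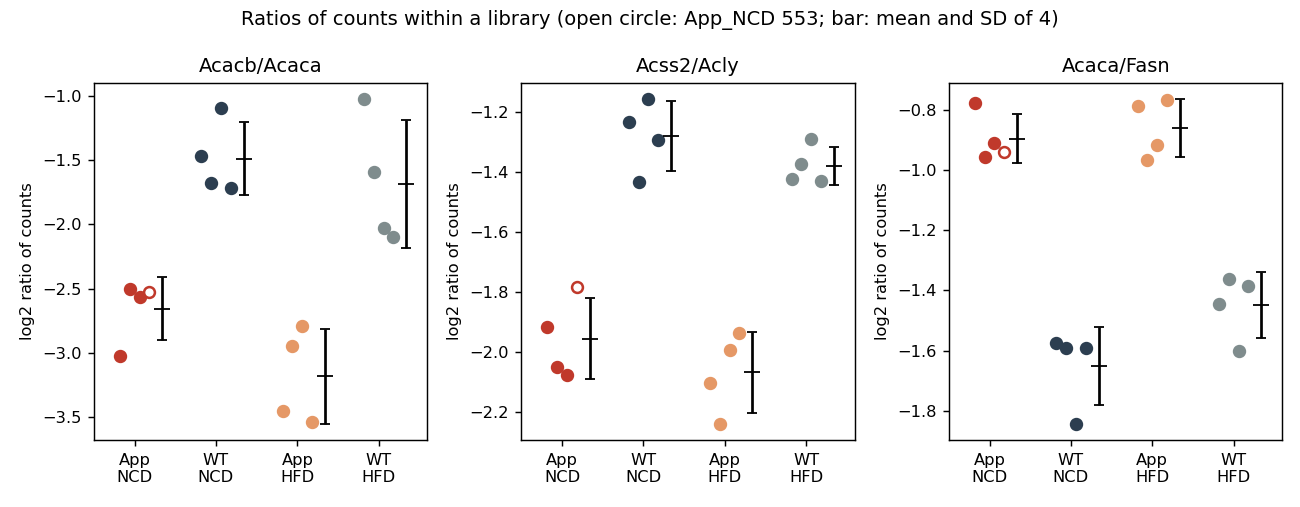
Log2 ratio of the counts of 2 genes in the same library for Acacb to Acaca, Acss2 to Acly and Acaca to Fasn, with groups App_NCD, WT_NCD, App_HFD and WT_HFD from left to right, points for libraries, an open circle for App_NCD 553, and bars for the mean and SD of 4. The App groups lie below wild type in the first 2 panels and above it in the third, for example at -3.54 to -2.79 in App_HFD and -2.10 to -1.02 in WT_HFD for Acacb to Acaca.

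The third question is what the high-fat diet did in each genotype. No member passed the test in App_HFD against App_NCD or in WT_HFD against WT_NCD, and all 6 overlapped between the diets in both genotypes. Of all tested genes, 3.23% were separated upward and 2.46% downward by diet in App mice, and 1.57% and 0.951% in wild types. Without 553 these were 4.53% and 3.7% in App mice and 1.63% and 0.936% in wild types, with all 6 members again overlapping. edgeR called 0 genes in either comparison (0% of those tested), with 2586 genes below an unadjusted p of 0.05 in App mice and 419 in wild types, none of them a member. Without 553 Acss2 reached an unadjusted p of 0.0499 in wild types (adjusted p = 0.966). DESeq2 called 102 and 7 genes, and limma-voom with quality weights 161 and 6, again with no member. The mean of the diet effects in both genotypes called 10 genes (0.0459%), none a member. In wild types the log2 fold changes (WT_HFD over WT_NCD) ran from -0.22 for Srebf1 to 0.001 for Acaca. The 95% intervals were -0.50 to 0.38 for Acly, -0.54 to 0.23 for Acss2, -0.37 to 0.37 for Acaca, -0.68 to 0.37 for Acacb, -0.57 to 0.15 for Fasn and -0.92 to 0.49 for Srebf1. In App mice (App_HFD over App_NCD) they ran from -0.23 for Acacb to 0.40 for Srebf1 with 553, and from -0.35 for Acacb to 0.11 for Acaca without it. Without 553 the intervals in App mice were -0.13 to 0.19 for Acly, -0.20 to 0.14 for Acss2, -0.16 to 0.38 for Acaca, -0.86 to 0.17 for Acacb, -0.18 to 0.37 for Fasn and -0.22 to 0.41 for Srebf1. For Acacb a fall by 0.86 on the log2 scale therefore lies within the interval. Of the 6 ratio tests between diets, the smallest exact permutation p was 0.0857, for Acacb to Acaca in App mice (log2 difference -0.53, adjusted p = 0.147). For Acaca to Fasn, WT_HFD 15 (log2 -1.602) was the only WT_HFD library within the WT_NCD range, which reached -1.575. Leaving it out therefore separates the diets in wild types by construction. The log2 difference was then 0.25 (exact permutation test, adjusted p = 0.049), against 0.20 with it (adjusted p = 0.171). This was picked from the runs that left out each library in turn, so it does not show a diet effect.

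The difference between the diet effects of the genotypes, the interaction, also called 0 members and 0 genes in edgeR (0% of those tested), with 639 genes and 0 members below an unadjusted p of 0.05, 3 genes called by DESeq2 and 0 by limma-voom. Fasn had the smallest unadjusted p, with a log2 difference of 0.44 (95% interval -0.07 to 0.95, adjusted p = 0.851), and 0.30 without 553 (-0.07 to 0.68, adjusted p = 1). For Acacb it was -0.07 (-0.82 to 0.67) and for Acss2 0.32 (-0.23 to 0.87). Hence a call for Acly, Acss2, Acaca, Fasn or Srebf1 on only 1 diet is not shown to be a difference between the diets.

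Other genes around the pathway were taken from 7 lists, and their counts below are for the contrast averaged over both diets with 16 libraries (edgeR, 17% of genes called, 10.6% higher and 6.34% lower). Counts given without 553 stand beside 16.2% of genes higher and 17.4% lower in that fit. Among 18 genes that control SREBP, ChREBP and liver X receptor activity, 2 were higher and 2 lower, with a median log2 fold change of -0.06. Mlxipl, which encodes ChREBP, the carbohydrate-responsive factor that also drives fatty acid synthesis genes, had 44.2, 45.6, 43.6 and 92.8 CPM in App_NCD, against 25.4, 15.5, 11.4 and 15.1 CPM in WT_NCD. It had 42.6, 50.03, 40.2 and 30.8 CPM in App_HFD, against 12.5, 11.7, 11.7 and 19.6 CPM in WT_HFD. No App library overlapped wild type. Mlxipl was highest in App_NCD 553, the library lowest in Srebf1. The TMM factor of that library was 0.493, against 0.984 to 1.11 in the others, which raises all its CPM values. By library totals alone, App_NCD 553 would not be the highest in Mlxipl. The log2 fold change of Mlxipl was 1.65 ± 0.21 (adjusted p = 5.23e-05), and 1.46 ± 0.162 without 553 (adjusted p = 7.48e-06). Rxra, the partner of liver X receptors on DNA, had 0.53 ± 0.154 (adjusted p = 0.0271). Pgrmc1, a haem-binding membrane protein, had -0.44 ± 0.122 (adjusted p = 0.0194). Srebf2, the sister factor that governs cholesterol synthesis, is named after its values were seen, and had -0.35 ± 0.204 (adjusted p = 0.263), and -0.23 ± 0.067 without 553 (adjusted p = 0.0148).

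Of 22 genes that supply acetyl-CoA, citrate and NADPH, 2 were higher and 7 lower (median -0.24), and without 553 3 were higher and 12 lower. Slc16a3, the monocarboxylate exporter MCT4, had 46.6, 56.8, 61.5 and 2.92 CPM in App_NCD, against 10.4, 8.54, 9.27 and 7.05 CPM in WT_NCD, and 33.3 to 55.1 CPM in App_HFD, against 6.10 to 9.09 CPM in WT_HFD. Only 553 fell within the wild-type range or below it. G6pdx, the NADPH-making entry to the pentose phosphate pathway, had a log2 fold change of 0.37 ± 0.0742 (adjusted p = 0.00272). Of 20 genes whose products modify the carboxylases or the synthase, 3 were higher and 0 lower in edgeR, with 4 lower without 553 (median -0.09). They were Brca1 (1.30 ± 0.202, adjusted p = 0.000319), whose product binds the phosphorylated cytosolic carboxylase, Camkk2 (0.90 ± 0.216, adjusted p = 0.00857), a kinase upstream of AMP-activated kinase, and Prkag2 (0.39 ± 0.127, adjusted p = 0.0439), a subunit of that kinase. Brca1 was low throughout, averaging 3.03 ± 0.244 CPM in App_NCD, against 1.07 ± 0.18 CPM in WT_NCD (SD, n = 4 each).

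Downstream of palmitate, 0 of 19 tested desaturation and elongation genes were higher in edgeR and 4 were lower (median -0.14), 9 without 553. Fads3, a desaturase, had -0.93 ± 0.177 (adjusted p = 0.00176), Elovl7, a very long chain elongase, -0.58 ± 0.143 (adjusted p = 0.01), and Elovl4 -0.44 ± 0.12 (adjusted p = 0.0191). For fatty acid uptake and activation, 3 of 17 were higher and 3 lower (median -0.19). Lpl, lipoprotein lipase, also a gene of the plaque-associated microglial list, averaged 468 ± 35.1 CPM in App_NCD, against 5.68 ± 2.64 CPM in WT_NCD, and 352 ± 91.1 CPM in App_HFD, against 6.26 ± 3.899 CPM in WT_HFD (SD, n = 4 each). Its log2 fold change was 6.09 ± 0.314 (adjusted p = 4.07e-09). The acyl-CoA synthetases Acsl5 (1.49 ± 0.209, adjusted p = 0.000134) and Acsl4 (0.60 ± 0.137, adjusted p = 0.00677) were higher as well. Of 8 tested genes of mitochondrial fatty acid synthesis edgeR called 0 (median -0.02), with 0 below an unadjusted p of 0.05, with or without 553. With TMM and 16 libraries Ndufab1, the mitochondrial acyl carrier protein, had -0.03 ± 0.134 and Lias, lipoic acid synthase, -0.09 ± 0.103. With oligodendrocyte scaling and without 553, where the median of all genes was 0.303, 5 of the 8 were called higher, among them Lias at 0.31 (adjusted p = 0.0285), while Ndufab1 had 0.20 (adjusted p = 0.178).

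Of 23 cholesterol synthesis genes and other SREBP-2 targets, 0 were higher in edgeR and 6 were lower, 1 and 10 without 553. Sqle, squalene epoxidase, had -0.41 ± 0.0801 (adjusted p = 0.00198), Lss, lanosterol synthase, -0.33 ± 0.0757 (adjusted p = 0.00635), and Hmgcs1, HMG-CoA synthase, -0.39 ± 0.0935 (adjusted p = 0.0091). The list's median of -0.29 stood beside -0.28 over 30 oligodendrocyte markers, of which 3 were lower. With oligodendrocyte scaling its median was -0.02 and 0 genes were lower, and for the supply, desaturation, uptake, modifier and control lists the medians became positive, at 0.043, 0.069, 0.076, 0.18 and 0.241, below the 0.254 over all genes. Under that scaling with 16 libraries Pgrmc1 (-0.18, adjusted p = 0.442), Elovl4 (-0.19, adjusted p = 0.335), Elovl7 (-0.33, adjusted p = 0.0576), Sqle (-0.14, adjusted p = 0.474), Lss (-0.06, adjusted p = 0.802) and Hmgcs1 (-0.11, adjusted p = 0.638) did not pass. Without 553 as well Elovl7 passed (-0.34, adjusted p = 0.0176), the other 5 did not, and Lss had 0.018, while Mlxipl, Rxra, Slc16a3, G6pdx, Brca1, Camkk2, Prkag2, Lpl, Acsl4 and Acsl5 were higher, as with TMM. With library totals alone Rxra (adjusted p = 0.295), G6pdx (adjusted p = 0.421), Camkk2 (adjusted p = 0.0888) and Prkag2 (adjusted p = 0.473) did not pass. Prkag2 did not pass with RLE scaling (adjusted p = 0.0504) or without mitochondrial genes in the totals (adjusted p = 0.072) either.

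**Figure D5:**
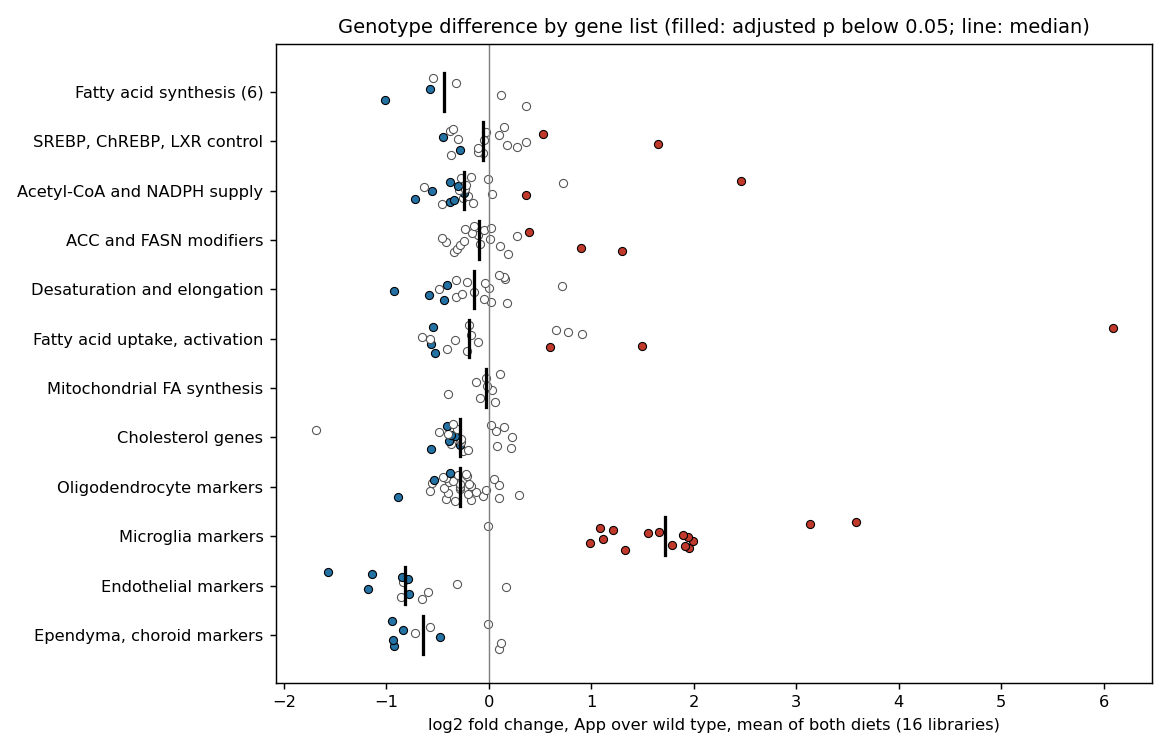
Log2 fold change of App over wild type, averaged over both diets (16 libraries, TMM scaling, x axis), for every tested gene of 12 lists (rows). Filled points have an edgeR adjusted p below 0.05, red higher and blue lower in App, and black lines are medians; the 6 fatty acid synthesis genes have a median of -0.44, microglial markers 1.72 and ependymal and choroid plexus markers -0.65.

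Across the 15 libraries without 553 the 6 genes fell into pairs that went together and pairs that went apart. Fasn and Srebf1 had a Pearson r of 0.909, Acss2 and Acacb 0.854, and Acss2 and Srebf1 0.838, while Acly and Acss2 had -0.83. Including 553, that r was 0.50. The values describe libraries in 4 groups that share their genotype differences, so they are not evidence for a link between 2 genes. By the same measure, Pearson's r of log2 CPM over 15 libraries, and among 11094 genes that averaged 5 CPM or more, the genes most like Acacb were Lama5 (r = 0.989), Col4a5 (0.983) and Col4a3 (0.98), which encode basement membrane laminin and collagen chains. Among those most like Acss2 were Tprkb (0.971) and Sept5 (0.963). For Acly they were Tex261 (0.964), Eef2 (0.96) and Timp2 (0.95), and for Acaca Depdc5 (0.944), Apbb2 (0.936) and Smarcal1 (0.93). For Fasn they were Prima1 (0.929), Ppp1r3e (0.928) and Tnk2 (0.917), and for Srebf1 Caskin2 (0.959), Grik5 (0.953) and Kifc3 (0.938). Several of these likenesses rested on leaving 553 out: with it r was 0.067 for Tprkb and 0.239 for Sept5, against 0.936 for Lama5.

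Some marker sums went with some members across libraries that share their genotype differences. With the oligodendrocyte sum r was 0.696 for Srebf1, 0.694 for Acss2, 0.658 for Acacb, 0.632 for Fasn, -0.534 for Acaca and -0.659 for Acly. With group means removed these ran from 0.022 (Acly) to 0.401 (Fasn). For the neuronal sum r ran from -0.211 (Acly) to 0.084 (Acaca). Over the 15 libraries Acacb had r = 0.844 with the ependymal and choroid plexus sum, and 0.478 once each group's mean was removed. Acaca had -0.893 with that sum, and -0.688 with group means removed. With the microglial sum Acly had r = 0.867, and -0.085 with group means removed, and Acss2 had -0.90, and -0.569 with group means removed. Acaca had 0.669 with the microglial sum, but -0.766 with group means removed, so within groups the libraries with more microglial RNA had less Acaca. Of the other lists, endothelial markers were lower in 6 of 12 genes and mural markers in 7 of 10 (1 higher), at summed levels of 211 to 322 CPM in App_NCD and 264 to 486 CPM in WT_NCD for endothelium and of 185 to 249 CPM in App_NCD and 261 to 338 CPM in WT_NCD for mural cells. On the high-fat diet these sums were 277 to 334 CPM in App_HFD and 275 to 550 CPM in WT_HFD for endothelium, and 231 to 266 CPM in App_HFD and 178 to 389.6 CPM in WT_HFD for mural cells. Astrocyte markers were higher in 1 and lower in 1 of 12 genes, precursor markers higher in 1 and lower in 2 of 12, and neuronal markers lower in 1 of 12. Without 553 the numbers lower were 10 for endothelium, 9 for mural cells, 6 for astrocytes, 7 of 10 for ependyma and choroid plexus and 10 of 30 for oligodendrocytes. Of all tested genes, 17.4% were lower in that fit, against 6.34% lower and 10.6% higher with 16 libraries. The plaque-associated microglial list was higher in 13 of 14 genes, at summed levels of 11180 to 29570 CPM in App_NCD, 5737 to 7549 CPM in WT_NCD, 19510 to 31830 CPM in App_HFD and 4861 to 6034 CPM in WT_HFD. The sum over 8 adipocyte markers was 176 to 366 CPM in App_NCD, 187 to 296 CPM in WT_NCD, 373 to 756 CPM in App_HFD and 241 to 613 CPM in WT_HFD, and of the 8 only Plin4 passed the filter. Adipoq was at 0 in 3 App_NCD, 3 WT_NCD, 4 App_HFD and 2 WT_HFD libraries and reached 1.75 CPM at most, and Plin1 was at 0 in 2 App_NCD, 1 WT_NCD, 4 App_HFD and 1 WT_HFD libraries. The defining markers of the other cell types were above 0 in every library. The part of any of these cell types' RNA in the differences was not tested.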

How the data were processed

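The deposited table holds estimated counts per gene, whole numbers that the authors made with StringTie 2.2.1, per the submitters' processing notes, which also name fastp 0.23.2, HISAT2 2.2.1, bedtools 2.25.0 and build mm10. The roles of these tools, the annotation counted against and the use of strand are not given in the sources used here. Gene coordinates come from GENCODE release 21 for mice, which held 99.7% of the 53801 gene IDs, and promoter sequences from RefSeq on GRCm38.p6.

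Counts were scaled by TMM, filtered with filterByExpr and fitted with edgeR 4.0.16 (robust quasi-likelihood) in R 4.3.3, with 1 coefficient for each of the 4 groups and all 16 libraries. The test used all 21768 genes, or 22322 without App_NCD 553, with Benjamini-Hochberg adjustment over all of them and a threshold of 0.05. The fit had 12 residual degrees of freedom, or 11 without App_NCD 553. The 95% intervals come from the same fit and are not adjusted. Ratios were taken on counts with a prior count of 0.5 and tested by exact permutation over libraries.

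The 6 genes and all 18 gene lists, 10 of them cell type markers, were chosen with earlier results of these data known. From each of the 7 other pathway lists, up to 3 genes called in a genotype contrast by smallest adjusted p were named, up to 3 called in a diet contrast, and where none was called the 2 with the highest level. For each member the 3 genes most like it were named. A few genes that these rules select are not reported here. Alternatives were other scalings (RLE, library totals, totals without mitochondrial genes, oligodendrocyte markers), no filter or at least 10 counts in every library, DESeq2 1.42.0, limma 3.58.1 voom with quality weights, non-robust dispersions, leaving out each library, a prior count of 5 for ratios, and fits of the 8 libraries of a pair only. Chosen after seeing the data were oligodendrocyte scaling without App_NCD 553, leaving out WT_NCD 4 and WT_HFD 16, and the mean ratio differences over both diets. edgeR's test was checked on counts simulated with its own dispersions, for genotype on the control diet and for diet in wild types. The simulated counts followed the model that the test assumes and held no library like App_NCD 553. The check therefore does not show how the test behaves with such a library. DESeq2, limma-voom and the ratio tests were not checked by simulation. No batch is given in the labels. Replicates are differently numbered mice, and nothing in the labels gives litter or cage.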

Additional observations from a re-analysis of the deposited data

Results flagged for a closer look

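Of 36 sets of 4 libraries (the 6 genes and 3 ratios in 4 groups), 7 held a library far from the other 3 by Dixon's test at the 95% level. Chance flags about 1 in 20 such sets.

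App_NCD 553 accounts for 4 of them. It had 80.67 CPM of Acly, 23.42 CPM of Acss2, 19.98 CPM of Acacb and 42.46 CPM of Srebf1, each the lowest of its group. Acaca (115 CPM) and Fasn (221 CPM) were lowest there too, without passing the criterion. In the same library 39.4% of counts were mitochondrial, and whether that bears on these levels was not tested.

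WT_NCD 11 stood apart in Acacb, at 74.26 CPM against 47.5 to 48.1 CPM in the rest of its group, and in the Acaca to Fasn ratio, at log2 -1.844. App_NCD 537 had an Acacb to Acaca log2 ratio of -3.024, below the others of its group.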

How the results depend on the processing

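No paired analysis was possible because no mouse number is shared between the groups. No member was called in either diet contrast, their mean or the interaction under any alternative run.

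Leaving out 1 library at a time gave 0 to 4 members called on the control diet, 0 to 4 on the high-fat diet and 2 to 6 over both, and 939 to 3900, 869 to 4307 and 2869 to 7502 genes, with 0 to 57 for the mean diet effect. The most came without App_NCD 553. Log2 fold changes then ran from -0.157 to 0.168 for Acly on the control diet, in App mice by diet from -0.028 to 0.269 for Acss2, in wild types by diet from -0.066 to 0.025 for Acaca and -0.402 to 0.03 for Acacb, for the Acacb interaction from -0.257 to 0.175, and for the mean diet effect from -0.016 to 0.14 (Acly), -0.093 to 0.054 (Acss2), -0.06 to 0.066 (Fasn) and -0.065 to 0.173 (Srebf1). Ratio differences ran from -1.24 to -1.032 (control diet) and -1.633 to -1.273 (high-fat) for Acacb to Acaca, -0.736 to -0.637 and -0.735 to -0.633 for Acss2 to Acly, and 0.69 to 0.78 and 0.537 to 0.624 for Acaca to Fasn, with 0.137 to 0.253 for Acaca to Fasn in wild types by diet. Without WT_HFD 15 the adjusted p was 0.049 for these 6 genotype differences and for the diet difference of Acaca to Fasn in wild types. Dropping that library separates the diets in this ratio by construction, which also lowers the adjusted p of the 6.

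Library totals alone called 0 members on either diet, 841 genes on the control diet and 0 for the mean diet effect, and turned the Acacb interaction to 0.07 and Acly over both diets to -0.016. Oligodendrocyte scaling called 0 members on either diet and 0 genes for the mean diet effect. It gave Acly 0.29 on the control diet, Fasn 0.17 and Srebf1 0.041 on the high-fat diet, Acaca -0.025 in wild types by diet, and mean diet effects of -0.056 (Acss2) and -0.034 (Fasn). Without 553 as well, it called 4766, 4455 and 9178 genes on the control diet, the high-fat diet and over both, 0 for the mean diet effect, and 3 members on the high-fat diet. It then gave Acly 0.57 and Fasn 0.007 on the control diet, Fasn 0.17 and Srebf1 0.041 on the high-fat diet, and Fasn 0.089 over both. In App mice by diet it gave -0.10 (Acly), -0.18 (Acss2), -0.062 (Acaca), -0.064 (Fasn) and -0.047 (Srebf1), in wild types -0.025 (Acaca), interactions of -0.007 (Acly) and -0.037 (Acaca), and mean diet effects of -0.099 (Acly), -0.19 (Acss2), -0.043 (Acaca), -0.15 (Fasn) and -0.14 (Srebf1). DESeq2 called 3398, 2508, 102, 7, 3 and 111 genes (control diet, high-fat diet, diet in App, diet in wild type, interaction, mean diet effect) and 4 members over both diets. limma-voom called 7231, 6672, 161, 6 and 532 genes (the same without the interaction), 10145 over both diets, and 6, 4 and 6 members on the control diet, the high-fat diet and over both, with Acly at 0.18 on the control diet and mean diet effects of -0.027 (Acly), -0.055 (Acss2) and -0.003 (Fasn). Acss2 was -0.006 for the mean diet effect under RLE and DESeq2, and Acaca -0.005 by diet in wild types without the filter or without mitochondrial genes in the totals. No filter called 0 genes for the mean diet effect. Leaving out WT_NCD 4 and WT_HFD 16 gave 0 genes and Fasn -0.005 there, and Acaca -0.033 by diet in wild types. Fits of 8 libraries called 505 genes and 0 members on the control diet, and 4816 genes and 3 members on the high-fat diet. Apart from scaling, whose construction sets the shift of all genes, the cause was not tested.

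With 4 libraries a group, an exact test cannot go below 0.0286. Differences between the diets smaller than the intervals given were not detectable. Counts alone cannot separate transcripts of 1 gene.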
